A study of Homo sapiens with 27 samples.

Results

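The comparison set HT1080 cells transfected with the soluble nucleoplasmic fragment of NET29 against HT1080 cells transfected with NLS-GFP, green fluorescent protein carrying a nuclear localisation signal. Its members were all 3 arrays of each group, taken by their sample titles. These were 6 of the 27 arrays of the series, and all 48803 probes were used. HT1080 is a human fibrosarcoma line that serves as a fibroblast model. Both groups were transient transfections, whereas the full-length proteins were carried by stable lines selected with Geneticin. NET29 is the product of TMEM120A, a nuclear envelope transmembrane protein (NET) that is made preferentially in fat. The other groups used beside the comparison were transient transfections with the soluble fragments of NET39 (the PLPP7 product) and NET47 (the TM7SF2 product), with 3 arrays each, the stable line with full-length NET29 fused to GFP, with 4 arrays, and untreated cells, with 4 arrays. Levels in the stable lines with full-length NET39 (4 arrays) and NET47 (3 arrays), also fused to GFP, are given where stated. The sources used here do not give the share of transfected cells or the time between transfection and harvest. The methods of the study describe the arrays of a group as biological replicates. A change of all cells and a larger change of the transfected ones cannot be told apart in such bulk samples.

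NETs span the inner nuclear membrane and expose part of their chain to the nucleoplasm. Through that part some of them bind chromatin or transcriptional regulators, and through the membrane anchor they hold what they bind at the nuclear periphery. A soluble fragment keeps the nucleoplasmic part but is not anchored, so that the comparison asks which transcripts differ when this part alone is present. NLS-GFP controls for the transfection and for a foreign protein in the nucleus.

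The promoter sequences of the 2 largest rises and the 2 largest falls that had exactly 1 entry in the promoter table are shown first, so that a reader can see where the transcripts of 4 strongly changed genes begin. The genes with the very largest changes, such as MAGEA1 and CCL2, are not among them. Of the 30 genes with the largest changes (15 in each direction), 19 had an entry. The stretches are the 250 bases before the start, 5′ to 3′ on the gene's strand, from RefSeq on GRCh38.p14. Capitals mark 3 motifs searched on both strands, the CCAAT box, which reads ATTGG on the other strand, the GC box GGGCGG, which reads CCGCCC there, and the TATA box TATAAA, which reads TTTATA there, overlapping matches included. C5orf46 lay on the minus strand at chr5:147906539-147906788, PIM2 on the minus strand at chrX:48919025-48919274, NME4 on the plus strand at chr16:396949-397198 and SYT11 on the plus strand at chr1:155859317-155859566.
C5orf46: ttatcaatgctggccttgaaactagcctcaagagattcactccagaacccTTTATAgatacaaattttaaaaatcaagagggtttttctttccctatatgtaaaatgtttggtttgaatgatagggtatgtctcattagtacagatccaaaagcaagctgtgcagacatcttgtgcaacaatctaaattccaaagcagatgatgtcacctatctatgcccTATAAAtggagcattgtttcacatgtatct
PIM2: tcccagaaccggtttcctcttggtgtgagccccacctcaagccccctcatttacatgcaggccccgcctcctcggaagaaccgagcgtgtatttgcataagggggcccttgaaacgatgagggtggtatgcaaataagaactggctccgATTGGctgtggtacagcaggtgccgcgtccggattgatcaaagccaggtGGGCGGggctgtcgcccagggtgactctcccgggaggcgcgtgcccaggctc
NME4: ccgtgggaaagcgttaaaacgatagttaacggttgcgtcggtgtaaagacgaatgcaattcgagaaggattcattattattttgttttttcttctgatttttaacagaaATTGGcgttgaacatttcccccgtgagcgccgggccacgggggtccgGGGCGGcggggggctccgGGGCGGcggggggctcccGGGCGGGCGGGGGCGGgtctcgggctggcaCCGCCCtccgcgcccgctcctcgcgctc
SYT11: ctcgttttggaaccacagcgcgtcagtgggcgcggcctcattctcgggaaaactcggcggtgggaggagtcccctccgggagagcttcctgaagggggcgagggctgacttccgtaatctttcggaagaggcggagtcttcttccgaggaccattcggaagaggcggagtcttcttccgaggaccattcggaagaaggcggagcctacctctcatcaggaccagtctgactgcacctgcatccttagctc
The 4 sequences had little in common. C5orf46, which rose, held 2 TATAAA matches, 1 of them beginning 30 bases before the start, and neither of the other motifs. PIM2, which also rose, held 1 CCAAT and 1 GC box match. NME4, which fell, held 6 GC box matches and 1 CCAAT match, and SYT11, which fell as well, held none of the 3 motifs. Of all 35116 promoters in the table, 32% had a CCAAT match in the same window, 42.6% a GC box match and 10.7% a TATAAA match.

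The arrays of the 2 groups were compared before any gene. Arrays of NET29 soluble correlated with each other at r = 0.993 to 0.995 over 11891 genes above background and arrays of NLS-GFP at 0.985 to 0.995, against 0.982 to 0.987 between the groups. NET29 soluble arrays were the dimmest of the 12 transient ones. Their brightest probe read 17207 to 19999 intensity units and their median probe 54.8 to 61.9, against 26479 to 30269 and 68.5 to 73.3 on NLS-GFP arrays. They also had fewer genes above background (9630 to 10000, against 10049 to 10553). The NET39 soluble arrays, with median probes at 66.4, 73.5 and 72.9, had similar numbers (9846, 9682 and 9937). Background was set on each array at the 95th percentile of probes for smell, taste, keratin-associated and defensin families, taken as silent here. Quantile normalisation gives all arrays the same distribution of values. The numbers of genes above background were counted after it and still differed between the groups. The calls that other scalings ended are named with the counts of calls. The part of array brightness in the results was not tested. Both groups fitted the label only in part: of 16 fibroblast markers 13 were above background on at least 3 of the 27 arrays. VIM (mean level 14.03 on the log2 scale in NLS-GFP cells and 14.02 in NET29 soluble cells), LGALS1, CAV1 and CD44 were among the bright ones, whereas THY1, FAP and PRRX1 were not above background on any of the 6 arrays. None of the 16 passed the threshold of the comparison.

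TMEM120A itself was read by 1 probe, whose place relative to the expressed fragment is not known, so that it does not check the transfection. Its log2 levels were 6.75, 6.68 and 6.91 in NLS-GFP cells and 7.17, 7.10 and 7.02 in NET29 soluble cells. The difference of 0.32 ± 0.13 (SE) did not pass (adjusted p = 0.271), although the arrays did not overlap. In the full-length line the same probe was 1.31 ± 0.12 above untreated cells (adjusted p = 5.16e-08), and the fragment effect minus the full-length effect was -0.99 (adjusted p = 0.00139). TMEM120B, the paralog, moved by 0.06 ± 0.10 (adjusted p = 0.861), and by -0.02 under median scaling.

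With the soluble fragment, 243 of 18665 genes passed the threshold, an adjusted p under 0.05 in limma's moderated test and a log2 fold change beyond 0.5 (1.30% of the genes tested). Of these, 93 rose (0.498%) and 150 fell (0.804%). MAGEA1, a cancer-testis antigen, fell most, 5.35-fold, followed by DKK3 (3.95-fold), a secreted glycoprotein of the Dickkopf family, and MDK (3.87-fold), the heparin-binding growth factor midkine. CCL2, a chemokine that attracts monocytes, rose 2.77-fold and GAL, the precursor of the neuropeptide galanin, 2.70-fold. Most changes were small. The median absolute log2 fold change of the 243 genes was 0.64, and 9 rises and 19 falls were beyond 1. All 243 had arrays that did not overlap between the groups, which 22.9% of all genes tested had. All 150 genes that fell were protein coding, whereas 82 of the 93 that rose were and 7 were transcribed pseudogenes. Of all 18665 genes tested, 17210 were protein coding and 281 transcribed pseudogenes. Probes without a gene name added 30 rises and 10 falls. In 210 of the 243 the gene was above background on all 6 arrays, and in 20 all arrays of 1 group were at background.

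**Figure D1:**
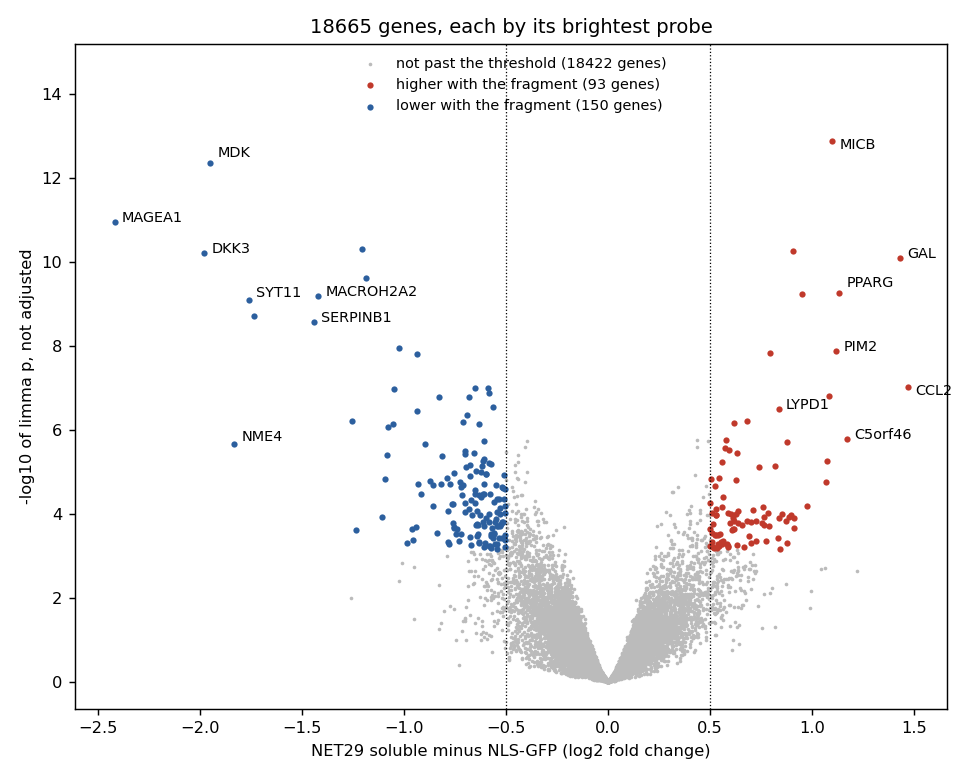
Each point is one of 18665 genes, with the log2 fold change of NET29 soluble over NLS-GFP on the horizontal axis and -log10 of the unadjusted limma p on the vertical axis. The 93 coloured points on the right rose and the 150 on the left fell, dotted lines mark a log2 change of 0.5 either way, and the largest falls reach further from 0 than the largest rises.

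Many calls did not hold when 1 array was left out, which also leaves fewer arrays in that group. The size of a change could stay close while its call ended. TXNRD1 lost its call under all 6 omissions, at log2 changes of -0.69 to -0.58. Of the 243 genes, 66 kept the call whichever of the 6 arrays was left out, and 23 also kept it under all 15 other settings tried. Without NLS-GFP replicate 2 the count dropped to 79 genes (26 higher and 53 lower), and without NET29 soluble replicate 1 to 108. Median scaling, in place of quantile normalisation, left 49 genes, 6 higher and 43 lower, so that 87.8% of calls were falls against 61.7%. Under it the median log2 fold change of all genes was -0.10, against -0.01. Among the genes described singly below it ended the calls of the rises CCL2, PIM2, GAGE7, CBX1, SCARNA9, UCN2, CPVL, MIX23, RPL23AP64, ACTL8, FABP5, CBX5, LYPD1 and TERC and of the falls PLEKHA1, ME1, TXNRD1, BMP4, TGFBR3, DUSP1, DUSP5 and SPRY4. Cyclic loess, another scaling, ended those of MIX23, RPL23AP64, FABP5, CBX5, TERC, VCY, NMRAL1, TRIML2, TXNRD1, BMP4, TGFBR3, DUSP5 and SPRY4. The 23 firmest genes were 5 rises (GAL, C5orf46, MICB, LINC01291 and ZNF239) and 18 falls (MAGEA1, DKK3, NME4, SYT11, EBP, SERPINB1, MACROH2A2, ECHDC2, ADGRE5, NCALD, GJB2, TEAD2, PPP2R2C, BRSK1, BGN, MYEOV, TMEM74B and KBTBD11).

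The genes with the largest changes are taken in the order of what they encode, which only arranges them and was not tested. Among those for secreted proteins and peptides, GAL read 6.40, 6.28 and 6.55 in NLS-GFP cells and 8.05, 7.73 and 7.76 in NET29 soluble cells. The lowest treated array lay more than 1 log2 unit above the highest control array, and the difference was 1.43 ± 0.13 (adjusted p = 5.45e-07). Galanin acts on G protein-coupled receptors in nerve and gut. CCL2 read 7.59, 7.12 and 6.36 in NLS-GFP cells and 8.57, 8.48 and 8.42 in NET29 soluble cells, a difference of 1.47 ± 0.20 (adjusted p = 0.000201). Here the control arrays were spread over more than 1 log2 unit while the treated ones lay close together. The value ran from 1.14 to 1.75 as single arrays were left out, and under median scaling it was 0.98 and no longer passed. C5orf46, which encodes a small secreted protein, rose by 1.17 ± 0.19 (adjusted p = 0.00149). UCN2, the stress peptide urocortin 2, read from 7.80 to 8.22 in NLS-GFP cells and from 8.88 to 9.06 with the fragment, a difference of 0.98 ± 0.20 (adjusted p = 0.0151). Its call ended without NLS-GFP replicate 1 or 2 or NET29 soluble replicate 1 or 2, with an adjusted p of up to 0.0765.

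PIM2, a serine/threonine kinase that favours cell survival, read from 6.84 to 7.02 in NLS-GFP cells and 8.10, 8.05 and 8.08 with the fragment, a difference of 1.12 ± 0.13 (adjusted p = 3.72e-05). MICB, a stress-induced ligand of the NKG2D receptor of natural killer cells, was at background on the NLS-GFP arrays and read 6.97, 7.06 and 7.02 in NET29 soluble cells. It was at least 1.76-fold higher with the fragment (adjusted p = 6.46e-09), the bound being taken against the background level of the control arrays. PPARG, the master receptor of fat cell formation, was likewise at background in NLS-GFP cells (6.03, 5.88 and 6.10) and read 7.10, 7.21 and 7.10 with the fragment. It was at least 1.92-fold higher (adjusted p = 2.75e-06). That value came from 1 of 4 PPARG probes. The other 3 were not above background on any of the 6 arrays, and the mean of the 4 probes moved by 0.30. LYPD1, a GPI-anchored protein of the Ly6 family, rose on both of its probes, by 0.84 ± 0.12 (adjusted p = 0.000432) and 0.76. CPVL, a serine carboxypeptidase of macrophages, also rose on both, by 0.95 ± 0.10 (adjusted p = 2.75e-06) and 0.58. Under median scaling PIM2 (0.69), CPVL (0.57) and LYPD1 (0.31) did not pass.

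CBX1, which encodes the heterochromatin protein HP1 beta, read 7.19, 6.89 and 7.34 against 8.30, 8.04 and 8.33, a difference of 1.08 ± 0.19 (adjusted p = 0.00325). CBX5, which encodes HP1 alpha, rose by 0.58 ± 0.15 (adjusted p = 0.0431), a call that ended on leaving out any one of 5 arrays, all but NLS-GFP replicate 1, with an adjusted p of up to 0.157. SCARNA9, a small Cajal body RNA that guides modification of spliceosomal RNA, rose by 1.07 ± 0.20 (adjusted p = 0.00675, or 0.0743 without NLS-GFP replicate 2). The telomerase RNA TERC rose by 0.89 ± 0.19 (adjusted p = 0.0200), a call that ended without replicate 1 or 2 of either group. The long non-coding RNA LINC01291 was at least 1.60-fold higher (adjusted p = 4.88e-07). GAGE7, of a cancer-testis family with near-identical copies that a probe may not separate, rose by 1.08 ± 0.15 (adjusted p = 0.000266). Under median scaling CBX1 (0.62), SCARNA9 (0.63) and GAGE7 (0.54) did not pass. The smaller rises of MIX23 (0.91), RPL23AP64 (0.91, a ribosomal protein pseudogene whose reading may include its parent gene) and ACTL8 (0.90) lost their calls without any one of several arrays. For MIX23 these were NLS-GFP replicates 2 and 3 and NET29 soluble replicates 1 and 3, for ACTL8 replicates 1 and 2 of both groups, and for RPL23AP64 all arrays but NET29 soluble replicate 2, with adjusted p-values of up to 0.118, 0.113 and 0.145.

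**Figure D2:**
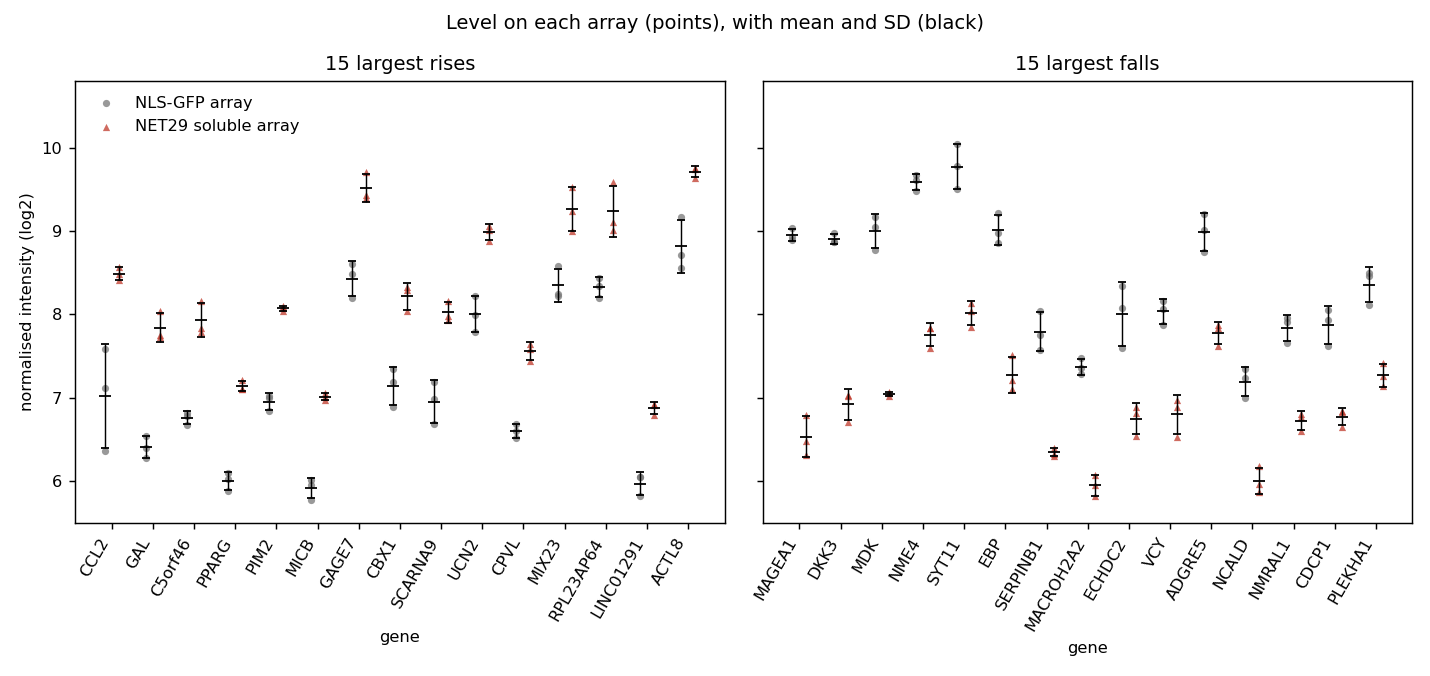
Normalised log2 intensity of the 15 largest rises and the 15 largest falls, with NLS-GFP arrays as circles, NET29 soluble arrays as triangles and the mean and SD of each group (n = 3) in black. In none of the 30 genes do the arrays of the groups overlap, and the NLS-GFP arrays of CCL2 are the most widely spread among the rises.

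MAGEA1, DKK3 and MDK gave the 3 largest falls. MAGEA1 read 8.93, 8.89 and 9.04 in NLS-GFP cells and 6.80, 6.48 and 6.31 in NET29 soluble cells. The difference of -2.42 ± 0.20 (adjusted p = 1.81e-07) was the largest of all genes, and the second MAGEA1 probe fell by 0.89. Its level in the control was itself high, as NLS-GFP cells were 1.56 ± 0.19 above untreated cells (adjusted p = 0.000177). Against untreated cells the fragment gave -0.86 ± 0.19 (adjusted p = 0.00765). DKK3 read 8.86, 8.87 and 8.97 against 6.71, 7.03 and 7.03, a difference of -1.98 ± 0.18 (adjusted p = 4.88e-07), with -1.52 on a second probe. Here NLS-GFP cells (8.90) were -0.19 ± 0.17 from untreated cells (9.09; adjusted p = 0.636). MDK read 9.05, 9.17 and 8.77 against 7.05, 7.02 and 7.07, a difference of -1.95 ± 0.14 (adjusted p = 1.07e-08). The other 5 MDK probes were not above background on any of the 6 arrays, so that the mean over probes moved by -0.36 only.

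Several falls were of enzymes, taken here 1 by 1. NME4, a mitochondrial nucleoside diphosphate kinase, read 9.67, 9.62 and 9.48 against 7.84, 7.83 and 7.60, a difference of -1.83 ± 0.30 (adjusted p = 0.00171). EBP, the sterol isomerase of cholesterol synthesis, read 9.21, 8.98 and 8.85 against 7.52, 7.10 and 7.22, a difference of -1.74 ± 0.19 (adjusted p = 7.14e-06). It stood alone among the genes of its pathway, since none of the other 17 members measured passed. ECHDC2, an enoyl-CoA hydratase domain protein, read 8.35, 8.08 and 7.60 against 6.54, 6.89 and 6.82, with a difference of -1.26 ± 0.19 (adjusted p = 0.000698). ME1, the malic enzyme that makes NADPH, fell by 0.71 ± 0.11 (adjusted p = 0.000737). NMRAL1, an NADPH sensor, fell by 1.11 ± 0.24 (adjusted p = 0.0201), but the call held only with NLS-GFP replicate 1 as the array left out, and the adjusted p was otherwise up to 0.109.

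SYT11, a synaptotagmin of vesicle traffic, read 9.78, 10.04 and 9.50 against 7.85, 8.13 and 8.05, a difference of -1.76 ± 0.18 (adjusted p = 3.32e-06). NCALD, the neuronal calcium sensor neurocalcin delta, read 7.23, 7.34 and 7.0 in NLS-GFP cells and was not above background with the fragment. It was at least 1.92-fold lower (adjusted p = 1.47e-06), and its second probe fell by 0.76. ADGRE5, the adhesion receptor CD97, read 8.74, 9.01 and 9.20 against 7.88, 7.84 and 7.63, a difference of -1.21 ± 0.11 (adjusted p = 4.88e-07). A second and dimmer ADGRE5 probe was at -0.38 (adjusted p = 0.0826). CDCP1, a surface glycoprotein phosphorylated by SRC kinases, fell by 1.10 ± 0.20 (adjusted p = 0.00608, or 0.0596 without NLS-GFP replicate 2). GJB2, the gap junction protein connexin 26, read from 7.26 to 8.03 in NLS-GFP cells and 6.87, 6.45 and 6.73 with the fragment, a difference of -1.08 ± 0.16 (adjusted p = 0.000848), and was picked for being among the firmest falls. PLEKHA1, a phosphoinositide-binding adaptor, fell by 1.09 ± 0.18 (adjusted p = 0.00252). The other PLEKHA1 probe, also above background on all 6 arrays, was at -0.45 (adjusted p = 0.275), and its groups overlapped. On the first probe NLS-GFP cells were 0.80 ± 0.17 above untreated cells (adjusted p = 0.0192). Against untreated cells the fragment gave -0.29 for PLEKHA1 (adjusted p = 0.405). SERPINB1, an inhibitor of neutrophil proteases, read 8.04, 7.75 and 7.58 against 6.33, 6.40 and 6.31, a difference of -1.44 ± 0.16 (adjusted p = 9.45e-06).

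MACROH2A2, which encodes a histone H2A variant of silent chromatin, read 7.35, 7.48 and 7.29 in NLS-GFP cells and was at background with the fragment. It was at least 2.18-fold lower (adjusted p = 2.79e-06). TEAD2, a transcription factor of the Hippo pathway, fell by 1.05 ± 0.14 (adjusted p = 0.000207). VCY, whose probe may also read its near-identical X-linked relatives, gave -1.24 ± 0.29 (adjusted p = 0.0297), and that call held only with NLS-GFP replicate 3 as the array left out. Against untreated cells the fragment gave -0.47 for VCY (adjusted p = 0.380).

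Gene lists written from general knowledge were described by their counts. The largest number of calls in 1 list was 3 falls among 24 immediate early and ERK feedback genes, whose median was -0.09 against -0.01 over all genes, where 0.804% of genes fell. Median scaling ended all 3 calls. All 3 act to switch off ERK or MAP kinase signalling. DUSP1, a dual-specificity phosphatase, read 10.02, 10.06 and 9.63 against 9.11, 9.14 and 9.11, a difference of -0.79 ± 0.17 (adjusted p = 0.0175). DUSP5, a nuclear phosphatase of ERK, gave -0.79 ± 0.19 (adjusted p = 0.0401) and the ERK inhibitor SPRY4 -0.58 ± 0.13 (adjusted p = 0.0184). For DUSP5 the NLS-GFP cells were themselves 0.71 ± 0.18 above untreated cells (adjusted p = 0.0478). Against untreated cells none of the 3 passed with the fragment. DUSP1 was at -0.45 (adjusted p = 0.0990), DUSP5 at -0.08 (adjusted p = 0.886) and SPRY4 at -0.31 (adjusted p = 0.131). MYC, at -0.47 (adjusted p = 0.00771), stayed inside the fold limit, and FOS (-0.19) and EGR1 (-0.08) did not pass. Each of the 3 calls ended under several single omissions. The number of genes called was 0 without NET29 soluble replicate 1 or 3. It was 1 without NET29 soluble replicate 2 or NLS-GFP replicate 1 or 2. Over the 6 omissions the weakest log2 change was -0.71 for DUSP1 and -0.65 for DUSP5, so that their sizes stayed beyond the fold limit while the calls ended. Without NLS-GFP replicate 3, SPRY4 was at -0.44 and inside the fold limit.

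Of 25 adipocyte and fat metabolism genes, 2 rose, PPARG and FABP5, a fatty acid-binding protein, and none fell (0.498% of all genes rose). The call of PPARG ended on the mean of its probes, as did that of FABP5. FABP5 read 9.83, 9.75 and 9.68 against 10.59, 10.26 and 10.50, a difference of 0.69 ± 0.17 (adjusted p = 0.0349). Its call ended without any one array other than NET29 soluble replicate 2, with an adjusted p of up to 0.138. The list as a whole did not move, with a median of -0.04. The fat cell genes FABP4 (0.19), ADIPOQ (-0.02), PLIN1 (-0.07) and CEBPA (0.07) and the lipid synthesis genes FASN (-0.23) and SCD (-0.45) did not pass. Among 21 heterochromatin and silencing genes, only CBX1 and CBX5 passed, and CBX3, which encodes the remaining HP1 protein, was at 0.29 (adjusted p = 0.588).

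Oxidative stress genes gave 2 falls among 15 members, beside 0.804% of all genes. These were ME1 and the thioredoxin reductase TXNRD1, at -0.63 ± 0.16 (adjusted p = 0.0414), a call lost on leaving out any one of the 6 arrays (adjusted p of up to 0.126). A second TXNRD1 probe was at -0.69 (adjusted p = 0.112). Against untreated cells the fragment gave -0.13 for TXNRD1 (adjusted p = 0.723) and -0.65 for ME1 (adjusted p = 0.000435). Of 19 TGF-beta and BMP pathway genes 2 fell, beside the same 0.804% of all genes. The ligand BMP4 read 7.03, 6.77 and 6.38 in NLS-GFP cells and was not above background with the fragment, at least 1.39-fold lower (adjusted p = 0.0163). TGFBR3, the co-receptor betaglycan, gave -0.65 ± 0.15 (adjusted p = 0.0256). BMP4 lost its call without replicate 1 or 2 of either group, and TGFBR3 without any one array but NLS-GFP replicate 3, with adjusted p-values of up to 0.0921 and 0.173. Against untreated cells the fragment gave -0.62 for BMP4 (adjusted p = 0.00748) and -0.39 for TGFBR3 (adjusted p = 0.108).

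In the remaining lists 0 or 1 member passed, beside 1.30% of all genes. Single rises were CCL2 among 22 cytokines and NF-kB targets, SPATA18 among 20 p53 targets, H2AC6 among 18 replication-dependent histones, KPNA2 among 30 nuclear pore and transport genes and RPL23 among 21 ribosomal proteins. Single falls were EBP, MAGEA1 among 17 cancer-testis antigens, ASNS among 22 amino acid response genes, BGN among 35 extracellular matrix genes and SLC2A3 among 23 hypoxia and glycolysis genes. Of these, SPATA18, H2AC6, KPNA2, RPL23, ASNS and SLC2A3 lost their calls under median scaling, and all 6 but SPATA18 also lost them on leaving out any one of several arrays. Amino acid response genes had the lowest median, -0.20, and 19 of the 22 values were below 0. Replication-dependent histones had the highest, 0.20, with 15 of 18 above 0, and respiratory chain genes stood at 0.16 with 18 of 22 above 0 and none past the threshold. No member passed among 30 interferon-stimulated genes, whose median was 0.02. IFI27 (0.75, adjusted p = 0.362), ISG15 (0.62, adjusted p = 0.227) and IFI6 (0.51, adjusted p = 0.236) were the highest of them. None passed either among 23 nuclear lamina and inner membrane genes, 24 mitosis genes, 25 DNA replication genes, 17 unfolded protein response genes, 16 heat shock proteins, 19 contractile genes, 19 matrix protease genes, or the markers of epithelial, blood, liver, muscle and endothelial cells. At an unadjusted p under 0.05 these lists had 2 to 8 members each and the marker lists 1 to 4, against 3342 of all 18665 genes.

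**Figure D3:**
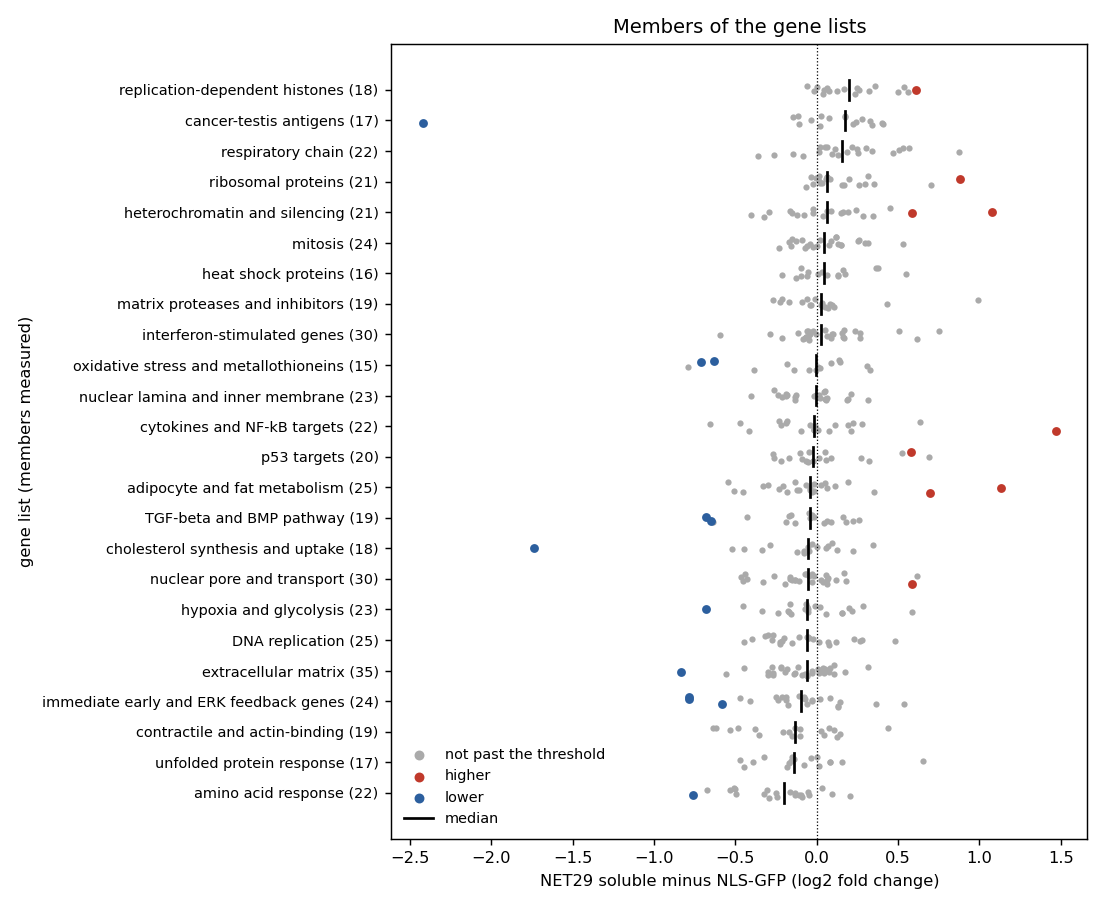
Each point is a member of a gene list, placed by its log2 fold change of NET29 soluble over NLS-GFP, with the list's median as a black bar and the number of members measured in brackets. Coloured points passed the threshold, and list medians lie between -0.20 and 0.20.

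The fragment was next set directly against the other 2 fragments, a contrast in which the NLS-GFP arrays play no part but the NET29 soluble arrays are the same. Against the mean of NET39 soluble and NET47 soluble, 293 genes passed (1.57% of those tested). Of the 93 rises over NLS-GFP 38 passed there in the same direction, and of the 150 falls 63 did, counts that the shared NET29 soluble arrays partly fix. GAL (1.62 ± 0.11, adjusted p = 1.79e-09), MICB (1.03, adjusted p = 3.33e-10), PPARG (0.93, adjusted p = 2.22e-06), DKK3 (-2.49 ± 0.15, adjusted p = 3.33e-10), EBP (-2.50 ± 0.16, adjusted p = 4.65e-10) and NME4 (-2.31, adjusted p = 4.55e-06) were beyond the limits against both together and against each fragment alone. GAL was at 6.41 in NLS-GFP cells, 6.58 with the NET39 fragment and 5.85 with the NET47 fragment, and at 7.84 with the NET29 fragment. EBP was at 9.02, 9.57 and 9.98 and then at 7.28.

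Other large changes were not peculiar to the NET29 fragment. MAGEA1 was at 8.04 with the NET39 fragment and at 6.29 with the NET47 fragment, against 6.53 with the NET29 fragment, so that the difference from NET47 soluble was 0.24 ± 0.20 (adjusted p = 0.653). MDK was lower still with the NET47 fragment, at 6.23 against 7.05 (a difference of 0.81, adjusted p = 0.000728). SERPINB1 was at 5.90 with the NET47 fragment and 6.35 with the NET29 fragment (adjusted p of the difference 0.143). CCL2 was at 7.90 with the NET39 fragment and 8.49 with the NET29 fragment, a difference of 0.59 ± 0.20 that did not pass (adjusted p = 0.194), and at 6.04 with the NET47 fragment. MACROH2A2 was at 6.33 with the NET39 fragment and 5.95 with the NET29 fragment (adjusted p of the difference 0.266), and at 7.94 with the NET47 fragment. Each fragment's difference from NLS-GFP shares the same control arrays.

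**Figure D4:**
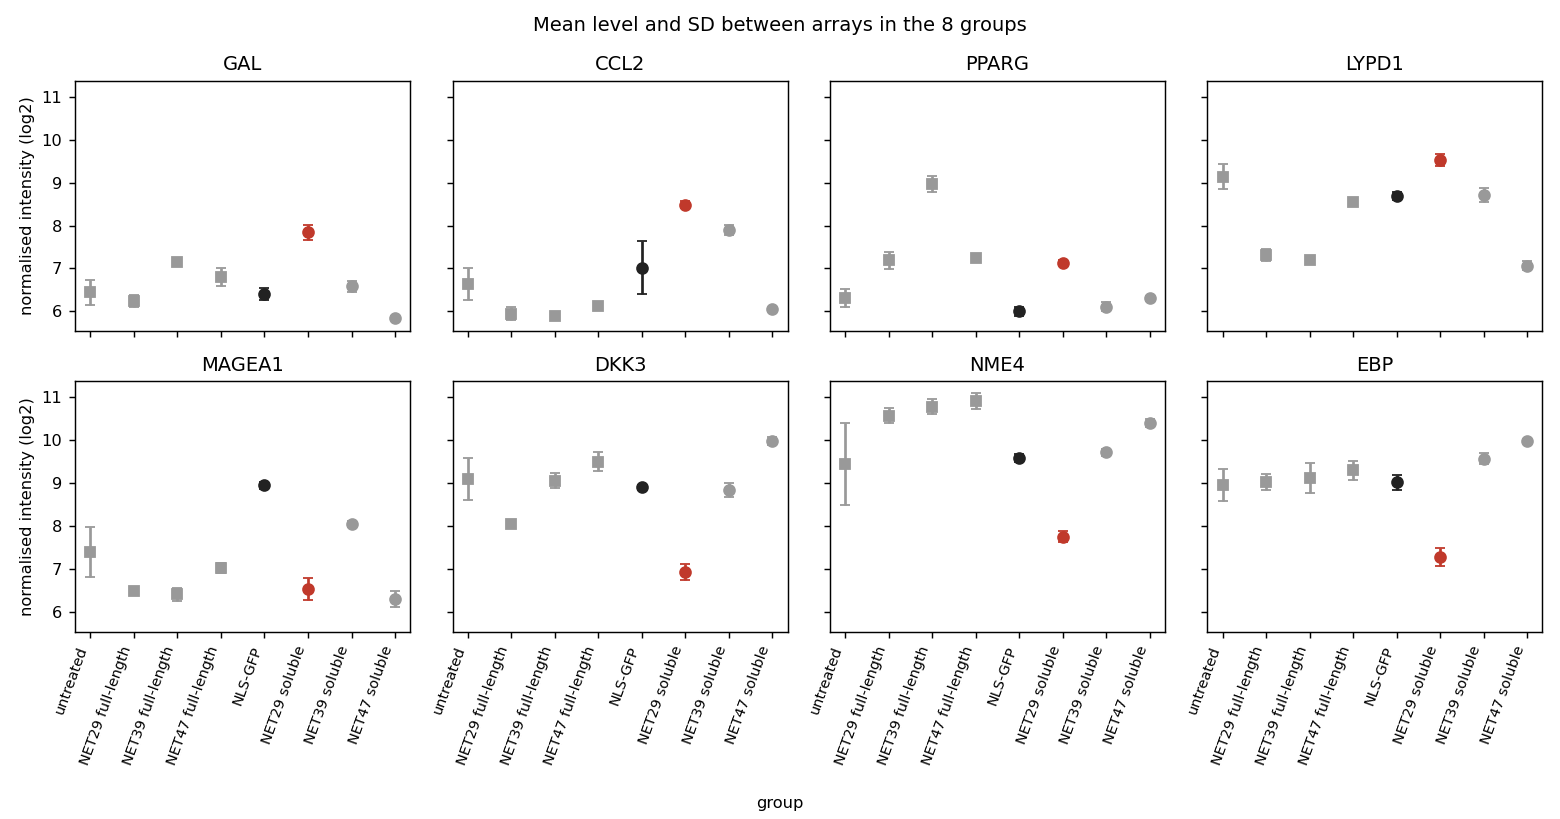
Mean normalised log2 intensity and SD between arrays (n = 3 or 4) of 8 genes in all 8 groups, squares for untreated cells and stable lines and circles for transient transfections, with NET29 soluble in red and NLS-GFP in black. GAL stands highest and DKK3, NME4 and EBP lowest in NET29 soluble cells, whereas MAGEA1 is highest in NLS-GFP cells.

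The effect of the fragment was last compared with that of the full-length protein in its stable line, measured against untreated cells. The 2 comparisons share no array. They differ in the control (NLS-GFP or untreated cells) and in the way the protein was expressed as well as in the membrane anchor. These differences cannot be told apart. Between NLS-GFP and untreated cells 208 genes passed (1.11%). Of the 150 falls 15 were higher there and 1 lower, and of the 93 rises 7 were lower and 2 higher. The shared NLS-GFP arrays partly fix these counts. Full-length NET29 changed 614 genes (3.29% of those tested, 1.06% higher and 2.23% lower). The 2 lists had 50 genes in common, 20.6% of the fragment's genes and 8.14% of the full-length protein's. Of the 50 genes, 21 went the same way and 29 the opposite way. Over 11891 genes above background on at least 3 arrays the log2 fold changes of the 2 forms correlated at r = -0.19 (rho = -0.24), a description across genes, which are not independent replicates.

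The genes that went the same way were mostly falls, 19 of 21. MDK fell by 2.47 ± 0.12 with the full-length protein (adjusted p = 2.32e-12) and by 1.95 with the fragment, SERPINB1 by 1.65 and 1.44, DKK3 by 1.04 and 1.98, and MAGEA1 by 0.92 and 2.42. The others included HCLS1, CDCP1, TEAD2, FEZ1, MACROH2A2 and ADGRE5. The 2 shared rises were PPARG, 0.87 ± 0.10 with the full-length protein (adjusted p = 2.10e-06) and 1.14 with the fragment, and CPVL, 0.78 and 0.95. For PPARG the difference between the 2 effects was 0.26 (adjusted p = 0.446) and for CPVL 0.17 (adjusted p = 0.596). Some of these levels were shared by other lines, which was not tested. PPARG was at 6.31 in untreated cells and at 7.19, 8.97 and 7.25 with full-length NET29, NET39 and NET47. CPVL was at 6.42, 7.20, 7.64 and 6.99. With full-length NET29 and NET39, MDK was at 6.09 and 6.05, SERPINB1 at 5.84 and 5.77, MAGEA1 at 6.48 and 6.41 and DKK3 at 8.04 and 9.06. With full-length NET47 they were at 8.46, 7.78, 7.02 and 9.50.

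The genes that went opposite ways were 16 that fell with the fragment and rose with the full-length protein, and 13 that did the reverse. TRIML2 fell by 0.96 with the fragment, from 8.68, 8.74 and 8.73 to 7.53, 7.97 and 7.77, and was 2.24 ± 0.19 higher with the full-length protein. The fall itself lost its call without any one array but NET29 soluble replicate 2 (adjusted p of up to 0.129). NME4 (-1.83 and 1.13), SYT11 (-1.76 and 0.93), NCALD (-1.19 and 1.05), NMRAL1 (-1.11 and 1.27), GJB2 (-1.08 and 1.29), PPP2R2C (-0.94 and 1.26), a regulatory subunit of protein phosphatase 2A, DUSP5 (-0.79 and 1.13) and SPRY4 (-0.58 and 0.87) fell with the fragment and rose with the full-length protein. LYPD1 rose by 0.84 with the fragment, from 8.59, 8.76 and 8.75 to 9.60, 9.63 and 9.37, and fell by 1.83 with the full-length protein. CCL2 (1.47 and -0.68), PIM2 (1.12 and -0.85), UCN2 (0.98 and -0.99), FABP5 (0.69 and -1.10) and SPATA18 (0.58 and -1.20) went the same way as LYPD1. Set against untreated cells instead of NLS-GFP, the fragment still changed NME4, SYT11, NCALD, NMRAL1, CCL2, PIM2 and FABP5 past the threshold in the same direction. DUSP5 (-0.08), SPRY4 (-0.31), UCN2 (0.41) and LYPD1 (0.40) did not pass there.

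Tested as an interaction, the difference between the 2 effects passed in 996 genes (5.34% of those tested). Among genes with no call in the full-length line, GAL differed by 1.64 ± 0.17 (adjusted p = 1.55e-06), EBP by -1.80 (adjusted p = 6.18e-05) and CBX1 by 1.08 (adjusted p = 0.0122).

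**Figure D5:**
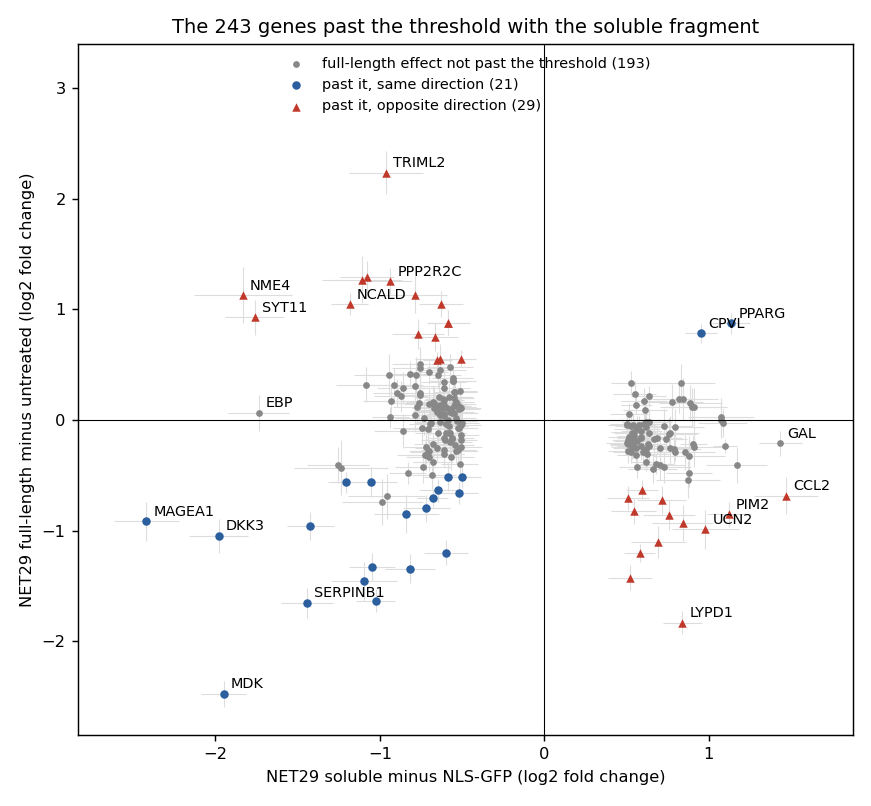
The 243 genes past the threshold with the soluble fragment, by their log2 fold change over NLS-GFP on the horizontal axis and that of the full-length line over untreated cells on the vertical axis, with standard errors as grey bars. Blue circles are the 21 genes called in both in the same direction, mostly at the lower left, and red triangles the 29 called in opposite directions.

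The genes that passed lay on every chromosome. Of 11891 genes above background on at least 3 arrays, 2.04% passed. Chromosomes 5 and 13 are known to move when full-length NET29 is expressed in these cells. The paper cites earlier work in which the soluble fragments did not move chromosomes. Of 531 genes above background on chromosome 5, 2 rose and 4 fell (1.13%), and of 219 on chromosome 13, 1 rose and 6 fell (3.20%). The largest share on an autosome was that of chromosome 15, where 5 of 382 genes rose and 9 fell (3.66%). These shares rest on few genes and were not tested.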

How the data were processed

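TRIzol-extracted total RNA was labelled with biotin, and each sample was run on 1 Illumina HumanHT-12 v3 bead array. The authors deposited summarised bead intensities that were neither background subtracted nor normalised, for 48803 probes, which gave every main value. They also deposited log2 values, quantile normalised by limma (no version stated), which served as an alternative. Groups were taken from the sample titles. The labels call the soluble fragments and NLS-GFP transient, and the paper in 1 place calls the fragment cells stable. The labels were followed.

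The intensities were background corrected by normexp (offset 50), quantile normalised and log2 transformed with limma 3.58.1 under R 4.3.3. The offset draws the fold changes of dim probes towards 0. All 27 arrays entered 1 linear model of 8 group means with 19 residual degrees of freedom, as the contrasts then share 1 estimate of the spread. Each contrast was tested by the moderated t statistic of limma. A gene passed with a Benjamini-Hochberg adjusted p under 0.05 over all 48803 probes and a log2 change larger than 0.5, limits taken from the study. Its moderated F test served as an alternative. The script was tested on simulated data. Through Entrez identifiers 27577 probes had 1 symbol, 13 several and 21213 none, and each of 18665 genes was read by its brightest probe over all arrays. Background was the 95th percentile of 615 probes of defensin, keratin-associated, taste and olfactory receptor genes. Where 1 group was not above it on any array, the fold is a lower bound against that level. The number of arrays limits the precision.

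Genes named were the 15 largest rises and 15 largest falls that passed, did not overlap between groups and were above background, up to 4 members of each of 30 lists with at least 2 members past the threshold, TMEM120A and TMEM120B, the 3 largest rises and falls in the contrasts with the other fragments and the full-length line, and up to 10 genes past the threshold on 2 or more probes. The members and lists were chosen with earlier results of these data known. The 23 genes kept under every setting, TERC, SPATA18 and the remaining genes called in both forms of NET29 were named after their values were seen. Alternatives were other scalings, background corrections, probe rules, array sets and single arrays left out. Omitting untreated replicate 4, which lay with the transient arrays on the first principal component, was added after the data had been seen.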

Additional observations from a re-analysis of the deposited data

Results flagged for a closer look

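Of the 45 named genes that passed the threshold, 33 also passed in the test of the fragment effect minus the full-length effect, given here as log2 differences, against 5.34% of all genes tested. The genes were chosen partly by these same effects, so that their number is a description only. Each effect is measured against its own control, NLS-GFP for the fragment and untreated cells for the full-length line. Genes that fell with the fragment and rose in the full-length line were TRIML2 (-3.20), NME4 (-2.96), SYT11 (-2.69), NMRAL1 (-2.38), NCALD (-2.23), the phosphatase subunit PPP2R2C (-2.20), DUSP5 (-1.92) and SPRY4 (-1.46). Genes that rose with the fragment and fell in the full-length line were LYPD1 (2.67), CCL2 (2.15), PIM2 (1.97), UCN2 (1.97) and FABP5 (1.79).

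Rises without a call in the full-length line were GAL (1.64), C5orf46 (1.58), MICB (1.33), RPL23AP64 (1.15), LINC01291 (1.12), GAGE7 (1.11), CBX1 (1.08), SCARNA9 (1.05), the small membrane protein SMIM29 (1.04), CBX5 (0.74) and the recombination protein RAD51C (0.58). Falls of that kind were EBP (-1.80), PLEKHA1 (-1.40), TXNRD1 (-1.09), DUSP1 (-0.83), TGFBR3 (-0.73) and OGFRL1 (-0.67). MAGEA1 (-1.50), DKK3 (-0.94) and ADGRE5 (-0.64) fell with both forms, and by more with the fragment when each form is set against its own control. Against untreated cells MAGEA1 was at -0.86 with the fragment and -0.92 with the full-length protein.

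In 6 of 94 checks of a named gene in a group of 4 arrays, 1 array stood apart from the others, where chance gives about 1 in 20. Among untreated arrays, replicate 4 read 8.28 for MAGEA1 (the others 7.08 to 7.13), 8.70 for NMRAL1 (7.21 to 7.38) and 9.82 for FABP5 (9.05 to 9.14), and replicate 2 read 6.97 for TMEM120B (6.55 to 6.60). In the full-length line, replicate 2 read 9.89 for DUSP1 (9.50 to 9.55) and 8.25 for PPP2R2C (7.79 to 7.81). Without untreated replicate 4, whose first principal component (22.9) was among those of the transient arrays (10.9 to 31.9), 360 genes passed with the fragment.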

How the results depend on the processing

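Against the 243 genes that passed with the fragment, median scaling gave 49 (44 of them among the 243, and 1 of the 243 with the other sign), cyclic loess 98, the 6 arrays alone 444, the 12 transient arrays alone 492, the moderated F test 457 and the fit without untreated replicate 4 gave 360. Leaving out single arrays gave 79 to 337. Against the 293 genes of the contrast with the other fragments, median scaling gave 625 (97.3% lower, against 47.4%) and a normexp offset of 16 gave 512, and single omissions 206 to 303. Against the 996 genes whose effect differed from that of the full-length protein, median scaling gave 148 (73.6% lower, against 51.3%) and the F test 1543, and single omissions 690 to 948. The counts under the remaining alternatives, other than the replicate block, were within 1.5 times. No pairing by replicate number was seen, as the deviations of same-numbered arrays correlated at -0.04, 0.08 and -0.03. So few arrays cannot exclude a pairing. With the replicate block 515 genes passed over the 12 transient arrays and 473 over the 6 compared.

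Among the named genes, 861 values under alternatives kept their direction and side of the threshold, 125 kept only the direction and 1 reversed, TMEM120B at -0.020 under median scaling. Median scaling ended the call of 24 named genes, cyclic loess of 13, the mean over the probes of a gene of 9 and an offset of 16 of 2. Among the falls whose calls ended under median scaling, PLEKHA1 (-1.34), ME1 (-1.04), OGFRL1 (-1.04), TXNRD1 (-1.13), TGFBR3 (-1.02) and all 3 of the ERK feedback list were then further from 0, whereas BMP4 was at -0.65. Single omissions ended the calls of 19 of 45 named genes, among them SMIM29 (without replicate 1 or 2 of either group, adjusted p of up to 0.0964) and RAD51C (0.48 without NLS-GFP replicate 3). The cause of these losses was not tested. With 3 arrays a group, dim probes limit the folds of the 20 genes not above background in 1 group to lower bounds.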
